A study of Saccharomyces cerevisiae with 3 samples.

Results

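The genes described here take up, store and sense inorganic phosphate in Saccharomyces cerevisiae, budding yeast. They were chosen by name and not by a cut on their values, but earlier results of these data were known at the time. They include the acid and alkaline phosphatases, carriers and regulators of the PHO pathway, and the subunits of the polyphosphate polymerase. Enzymes that break down polyphosphate or make and remove inositol pyrophosphates are also among them. There are 31 such genes among the 6174 genes of the array table, and each has a row there. A value on at least 1 array was present for 20 of them and on at least 2 arrays for 17. The other 11 (PHO4, PHO80, PHO81, PHO85, PHO87, PHO91, VTC2, PHM7, PHM8, GIT1 and KCS1) had no value on any array analysed here, and nothing is said of their transcripts. Missing values were common throughout the table: 3473 of the 6174 genes had none.

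RNA came from the strain labelled WSC1extMID2cyt, in the BY4741 background, on both sides of every comparison. The label names WSC1 and MID2, which encode plasma membrane sensors of cell wall damage, and how the strain was built is not given in the sources used here. The treated part of a culture in rich medium (YEPD) at 24 °C received 15 ng/ml caspofungin for 2 hours, while the other part grew on beside it with no drug. Caspofungin is an echinocandin, a drug that inhibits synthesis of the beta-glucan of the cell wall. Each of the 3 arrays, numbered 1, 2 and 4 in the labels, carried treated and untreated RNA in 2 dyes. The drug-treated RNA carried Cy3 on array 1, whereas Cy5 marked it on arrays 2 and 4. The values are log ratios of the 2 channels, taken as log2 because the base is not stated. Whether a positive value means more transcript with caspofungin or less is not stated either, so only the side of 0, positive or negative, is given, and turning the sign would exchange both sides throughout.

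Yeast cells hold phosphate within narrow limits through the PHO pathway. When phosphate is scarce, the inhibitor Pho81, which responds to inositol pyrophosphates, switches off the cyclin-dependent kinase Pho80-Pho85, and the unphosphorylated transcription factor Pho4 enters the nucleus and, with Pho2, activates genes of phosphatases, high-affinity carriers and polyphosphate synthesis. Polyphosphate, a chain of phosphate units made and moved into the vacuole by the VTC complex, is the main store. In rich medium most Pho4 targets are known to be weakly transcribed.

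Array 1 gave values for 2520 genes, array 2 for 1924 and array 4 for 741. The number of arrays limits the precision, and signal intensities were not used here. The median of all genes lay at -0.20 on array 1, at -0.22 on array 2 and at 0.09 on array 4, so a slightly negative value on arrays 1 and 2 is close to that of the typical gene. For this reason the place of a value among all genes of its array is given as a percentile beside it, and values relative to the array's median are called centred. Across genes Pearson's r was 0.58 between arrays 1 and 2 (1863 genes), 0.53 between arrays 2 and 4 (590 genes) and 0.07 between arrays 1 and 4 (616 genes). Genes are not independent replicates. Per the series text, 2 cultures were each hybridised in both dye orientations. Arrays 2 and 4 thus came from different cultures and array 1 shared its culture with one of them, unstated which. BY4741 is a MATa strain. Of 5 markers of MATa cells 3 had a value, and of 4 markers of MATalpha cells 0 had one, which shows no level because the table holds ratios. The gene LEU2, which BY4741 is known to lack, had -0.63 on array 1 and 0.39 on array 2. HIS3, of which it lacks a part, had -0.31 and 0.19. MET15 and URA3, the other BY4741 deletions looked up, had no value on any array, like 3473 of the 6174 genes. Whether the strain carries a copy of LEU2 or HIS3 again is not given in the sources used here.

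Among the members, the sodium-coupled phosphate carrier gene PHO89 lay highest and the acid phosphatase gene PHO11 lowest, and both had one sign on the 2 arrays that measured them. By their means over at least 2 arrays, the other members lay closer to 0 than these 2 genes. Of the 5 polyphosphate genes measured, 4 had opposite signs on arrays 1 and 2, as had 27.5% of the 1863 genes on both arrays. No member passed the test. Over the 17 members with values on at least 2 arrays, the median of the mean log2 ratios was -0.18, against -0.19 over all 1899 such genes. Their means ranged from -1.18 to 0.84. One sign on every array measured was found for 11 of the 17 members, 4 positive and 7 negative. Among all 1899 genes this held for 64.4%, with 18.5% positive and 45.9% negative. After centring, 10 of the 17 had one sign, 7 positive and 3 negative, against 59.3% of all genes, 30.8% positive and 28.6% negative. The count of members with one sign was thus close to the share in the whole table both ways. A ratio of at least 2-fold (1 or more in size on the log2 scale) was found for 0 of 19 members on array 1, where 5.75% of all genes reached it, for 2 of 17 on array 2 (11.8% of all genes) and for 1 of 4 on array 4 (23.6% of all genes).

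**Figure D1:**
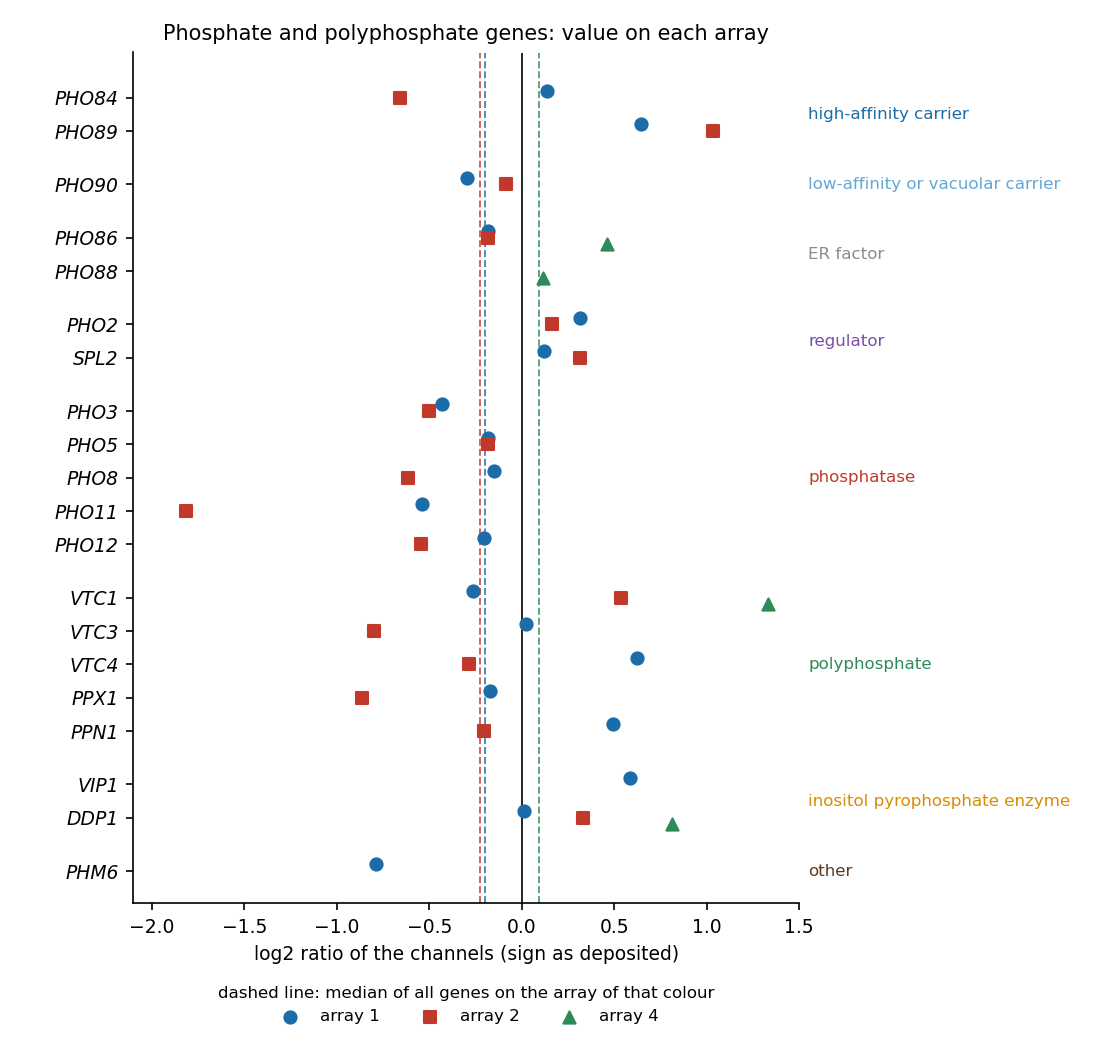
Log2 ratio of each of the 20 members with a value (rows, grouped by role) on array 1 (circles), array 2 (squares) and array 4 (triangles), with dashed lines at the median of all genes on each array. PHO89 is positive on both of its arrays and PHO11 negative on both, with -1.81 on array 2, while VTC1 spreads from -0.26 to 1.33.

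The carriers that bring phosphate across the plasma membrane did not share a side. PHO89 (YBR296C) encodes the high-affinity carrier that couples phosphate to sodium and works best at alkaline pH. Besides Pho4, it is a known target of the calcineurin-activated factor Crz1. PHO89 had 0.65 on array 1 and 1.03 on array 2 and no value on array 4. These values stood at the 93.9th and 96.5th percentile of their arrays. The mean was 0.84 ± 0.27 (SD, n = 2 arrays), the 77th highest of 1899 genes, with a 95% interval of 0.27 to 1.41 from limma that takes each array as a replicate, as do the intervals of the other members. Arrays 1 and 2 may be dye swaps of one culture, and the intervals of genes measured on these arrays alone are then too narrow.

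PHO84 (YML123C) encodes the proton-coupled high-affinity carrier, the main one at acid and neutral pH and a strong Pho4 target. PHO84 had 0.14 on array 1 and -0.66 on array 2, at the 77.3rd and 21.5th percentile. The 2 arrays disagreed in sign, and the mean of -0.26 ± 0.56 (SD, n = 2 arrays) had a 95% interval of -0.92 to 0.40. PHO89 lay above PHO84 by 0.51 on array 1 and by 1.69 on array 2. This difference was not tested.

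Of the low-affinity carriers, which serve cells with ample phosphate, PHO90 (YJL198W) had a value and PHO87 did not. The vacuolar exporter PHO91 had none either. PHO90 had -0.30 on array 1 and -0.08 on array 2, with a mean of -0.19 ± 0.15 (SD, n = 2 arrays). Centred, these were -0.10 and 0.14, on both sides of the typical gene. PHO86 (YJL117W) encodes an endoplasmic reticulum protein that packages Pho84 for export. It had -0.18 on array 1, -0.18 on array 2 and 0.46 on array 4, a mean of 0.03 ± 0.37 (SD, n = 3 arrays). PHO88 (YBR106W, SND3 in the reference), which acts in targeting proteins to the endoplasmic reticulum, had 0.11 on array 4 alone, at the 51.9th percentile.

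The regulators were covered thinly. The activator PHO4, the cyclin PHO80, the kinase PHO85 and its inhibitor PHO81 had no value. PHO2 (YDL106C) encodes the homeodomain partner of Pho4, which also activates adenine synthesis genes with Bas1. PHO2 had 0.32 on array 1 and 0.17 on array 2, at the 85.3rd and 77.6th percentile, with a mean of 0.24 ± 0.11 (SD, n = 2 arrays). SPL2 (YHR136C), a Pho4 target whose small protein holds back low-affinity uptake, had 0.12 on array 1 and 0.32 on array 2, at the 76.6th and 84.5th percentile. Its mean was 0.22 ± 0.14 (SD, n = 2 arrays). Both genes lay above the typical gene on both arrays, but their 95% intervals included 0 (-0.31 to 0.79 for PHO2 and -0.33 to 0.77 for SPL2).

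The phosphatase genes all lay on the negative side. Their products cleave phosphate from organic compounds, at the cell surface for the acid phosphatases and in the vacuole for the alkaline phosphatase Pho8. All 5 were measured on arrays 1 and 2 and none on array 4. Each of the 10 values was negative, with a median of the means of -0.38. Of all genes on at least 2 arrays, 45.9% were negative on every array measured. That share includes genes measured on array 4, where the median was positive (0.09), so it is not matched to these 5 genes. On arrays 1 and 2 alone, 27.5% of the 1863 genes had opposite signs. After centring, 3 of the 5 (PHO3, PHO11 and PHO12) were below the array median on both arrays, PHO5 was above it on both, and PHO8 was mixed. Of all genes 28.6% were below it on every array measured, a share that likewise includes genes on array 4. On array 1 the centred value of PHO12 was -0.0032, at the level of the typical gene.

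PHO11 (YAR071W) encodes a repressible acid phosphatase. It had -0.54 on array 1 and -1.81 on array 2, at the 18.6th and 1.43rd percentile. The mean of -1.18 ± 0.90 (SD, n = 2 arrays) was the 38th lowest of 1899 genes, with a 95% interval of -1.98 to -0.37, and array 2 gave most of it. PHO11 was the 1 member whose mean reached 2-fold, against 5.85% of all genes.

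PHO12 (YHR215W) is known to be a near-identical copy of PHO11. It had -0.20 on array 1 and -0.54 on array 2, with a mean of -0.37 ± 0.24 (SD, n = 2 arrays). PHO11 lay below PHO12 on both arrays, with a difference of -0.34 on array 1 and -1.27 on array 2. Probe sequences were not used here, so how much signal the copies share is unknown and the values of both genes are uncertain.

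PHO5 (YBR093C), the main repressible acid phosphatase and a classical Pho4 target, had -0.18 on array 1 and -0.18 on array 2, at the 51.5th and 54.0th percentile. This gene sat at the middle of both arrays. PHO3 (YBR092C), the neighbour of PHO5 on the chromosome, encodes a related acid phosphatase made in phosphate-rich cells and repressed by thiamine. PHO3 had -0.43 on array 1 and -0.50 on array 2, a mean of -0.47 ± 0.048 (SD, n = 2 arrays) with a 95% interval of -1.01 to 0.080. PHO5 exceeded PHO3 by 0.25 on array 1 and 0.32 on array 2, although related sequences may share signal here too. PHO8 (YDR481C) had -0.15 on array 1 and -0.62 on array 2, at the 54.7th and 23.9th percentile.

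**Figure D2:**
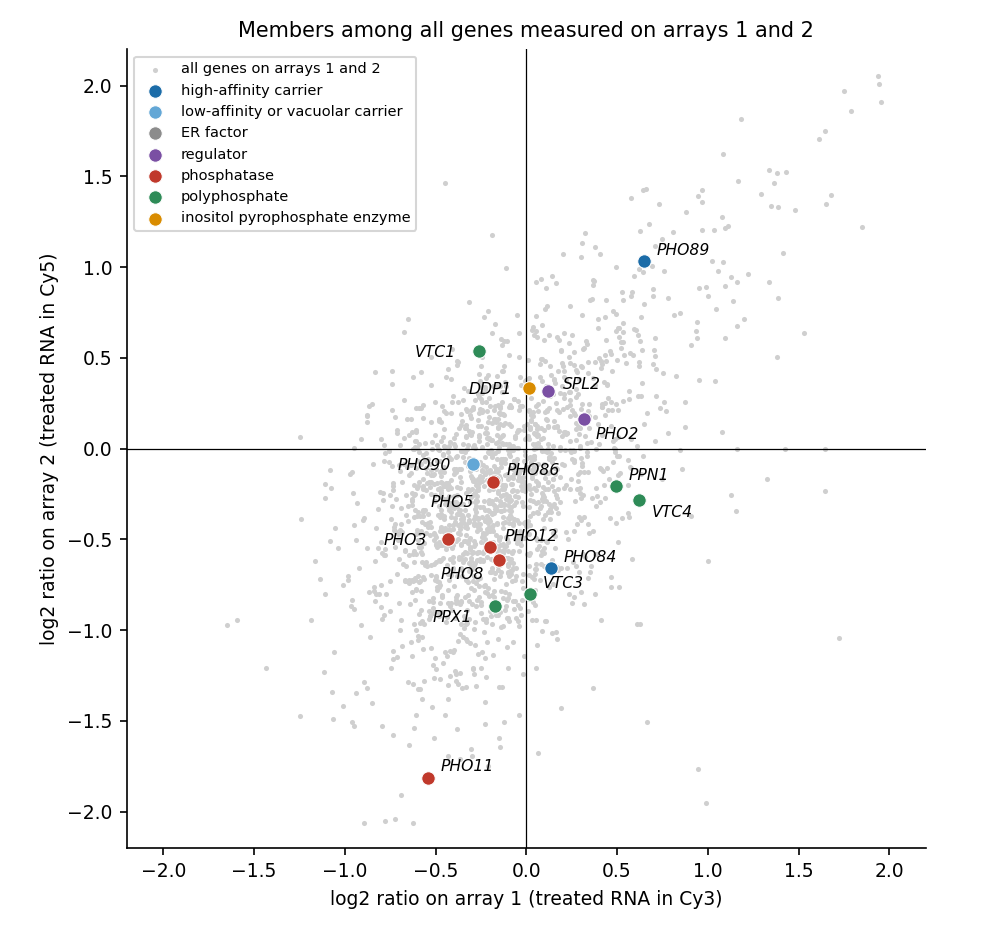
Log2 ratio on array 1 (horizontal) against array 2 (vertical) for the 1863 genes measured on both (grey, of which 33 lie outside the plotted range) and the 17 members among them, coloured by role. PHO89 lies in the upper right and PHO11 at the lower edge. The phosphatases lie in the lower left, as do PHO86, PHO90 and PPX1, and VTC3, VTC4, PPN1 and PHO84 lie to the right of 0 and below it.

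Opposite signs on arrays 1 and 2 were found for 5 of the 17 members, close to the 27.5% of all genes on both arrays. They were the carrier gene PHO84 and 4 of the 5 polyphosphate genes, and whether these 4 stand apart was not tested. VTC4 (YJL012C), the catalytic subunit of the polymerase, had 0.62 on array 1 and -0.28 on array 2, at the 93.3rd and 46.0th percentile. VTC3 (YPL019C), an accessory subunit that alternates with Vtc2, had 0.02 on array 1 and -0.80 on array 2, at the 69.1st and 15.0th percentile. VTC4 thus exceeded VTC3 by 0.60 on array 1 and by 0.52 on array 2, although each gene differed by more than this between the arrays.

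VTC1 (YER072W), the small membrane subunit, ran the other way between arrays 1 and 2. VTC1 had -0.26 on array 1, 0.54 on array 2 and 1.33 on array 4, at the 43.8th, 90.3rd and 94.9th percentile. Arrays 2 and 4, which share a dye orientation, were positive and array 1, with the dyes swapped, was negative. The mean was 0.54 ± 0.80 (SD, n = 3 arrays), and 0.34 in a fit with a term for dye orientation (limma adjusted p = 0.55). It was 0.93 without array 1 and 0.14 without array 4, so its size depended on the arrays used.

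The polyphosphatases also differed between arrays. PPN1 (YDR452W), the vacuolar endopolyphosphatase and a Pho4 target, had 0.49 on array 1 and -0.21 on array 2, at the 90.7th and 51.8th percentile. PPX1 (YHR201C), the cytosolic exopolyphosphatase, had -0.17 on array 1 and -0.87 on array 2, at the 52.6th and 12.2nd percentile. As deposited, PPX1 was the 1 polyphosphate gene with one sign throughout, with a mean of -0.52 ± 0.49 (SD, n = 2 arrays). Centred, PPX1 was mixed, at 0.028 on array 1 and -0.64 on array 2. The 1 polyphosphate gene with one sign was then PPN1, at 0.69 on array 1 and 0.019 on array 2. VTC3, VTC4, PPN1 and PPX1 were each lower on array 2, by 0.69 to 0.91 on the log2 scale. Array 2 lay below array 1 for 12 of the 17 members, where it did so for 57.1% of the 1863 genes on both arrays. The SD of the array 2 minus array 1 difference was 0.56 over the members and 0.59 over all genes, so the members differed between these arrays by about as much as other genes.

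Inositol pyrophosphates, the signal molecules of the pathway, are made by the kinases Kcs1 and Vip1 and removed by Ddp1. DDP1 (YOR163W) had 0.01 on array 1, 0.33 on array 2 and 0.81 on array 4, at the 68.6th, 84.7th and 86.2nd percentile. It was the 1 member measured on all 3 arrays with one sign, though its array 1 value was near 0, and the mean was 0.39 ± 0.40 (SD, n = 3 arrays). VIP1 (YLR410W) had 0.59 on array 1 alone, at the 92.7th percentile, and KCS1 had no value. PHM6 (YDR281C), a Pho4 target of unknown function, had -0.79 on array 1 alone, at the 5.18th percentile.

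The members were also split by whether textbooks give them as induced on phosphate starvation through Pho4. Of the 18 induced genes, 12 had values on at least 2 arrays, with a median of the means of -0.075, 2 positive (PHO89 and SPL2), 4 negative (PHO5, PHO8, PHO11 and PHO12) and 6 mixed. Of the 13 others, 5 had such values, with a median of -0.19, 2 positive (PHO2 and DDP1), 3 negative (PHO3, PHO90 and PPX1) and 0 mixed. After centring, the induced genes were 5 positive, 2 negative and 5 mixed, and the others 2 positive, 1 negative and 2 mixed, where 30.8% of all genes were positive and 28.6% negative on every array. The starvation-induced genes therefore did not lie on one side together: the carrier gene PHO89 and the phosphatase gene PHO11, both Pho4 targets, marked the opposite ends.

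Each gene was tested against a log2 ratio of 0 over all genes with enough values. For genes on all 3 arrays, limma with arrays of one culture averaged under both possible pairings called 0 of 585 genes (0%) at an adjusted p below 0.05, with 67 at an unadjusted p below 0.05. With 3 separate arrays limma called 2 of 585. The 3 members tested had limma adjusted p-values of 0.48 (VTC1), 0.58 (DDP1) and 0.99 (PHO86). With each array as a replicate and genes on at least 2 arrays, limma called 48 of 1899 genes (2.53%), 34 positive (1.79%) and 14 negative (0.737%), or 64 positive and 14 negative after centring. These p-values are too small for genes whose arrays share a culture. None of the 17 members passed there, and 2 of them, PHO89 and PHO11, were below an unadjusted p of 0.05, as were 453 of all genes. Their limma adjusted p was 0.13 each. After centring, 4 of the 17 members were below an unadjusted p of 0.05, as were 365 of the 1899 genes. They were PHO89, PHO11, VTC1 and DDP1, and VTC1 and DDP1 had limma adjusted p-values of 0.22 and 0.20. Both have values on 3 arrays from 2 cultures, so these p-values are too small. With arrays of one culture averaged, the unadjusted limma p after centring was 0.053 for VTC1 and 0.069 for DDP1 (adjusted p = 0.41 each).

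The call for PHO89 and PHO11 changed when array 4 was left out, though neither was measured on it and their means stayed the same. The limma test draws on the spread of all genes tested, and those values changed. Its standard error for PHO11 was 0.34 with array 4 and 0.28 without it, and for PHO89 0.24 both ways. Without array 4 limma called 209 of 1863 genes (11.2%), and 2 of the 17 members passed. PHO89 (adjusted p = 0.030) was 1 of the 4.78% of genes called on the positive side and PHO11 (adjusted p = 0.011) 1 of the 6.44% on the negative side. The share of members was close to that of all genes. Arrays 1 and 2 may come from one culture, and then these p-values are too small and cover technical spread. After centring, the mean of PHO89 was 1.05 (limma adjusted p = 0.061) and that of PHO11 -0.97 (limma adjusted p = 0.17).

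**Figure D3:**
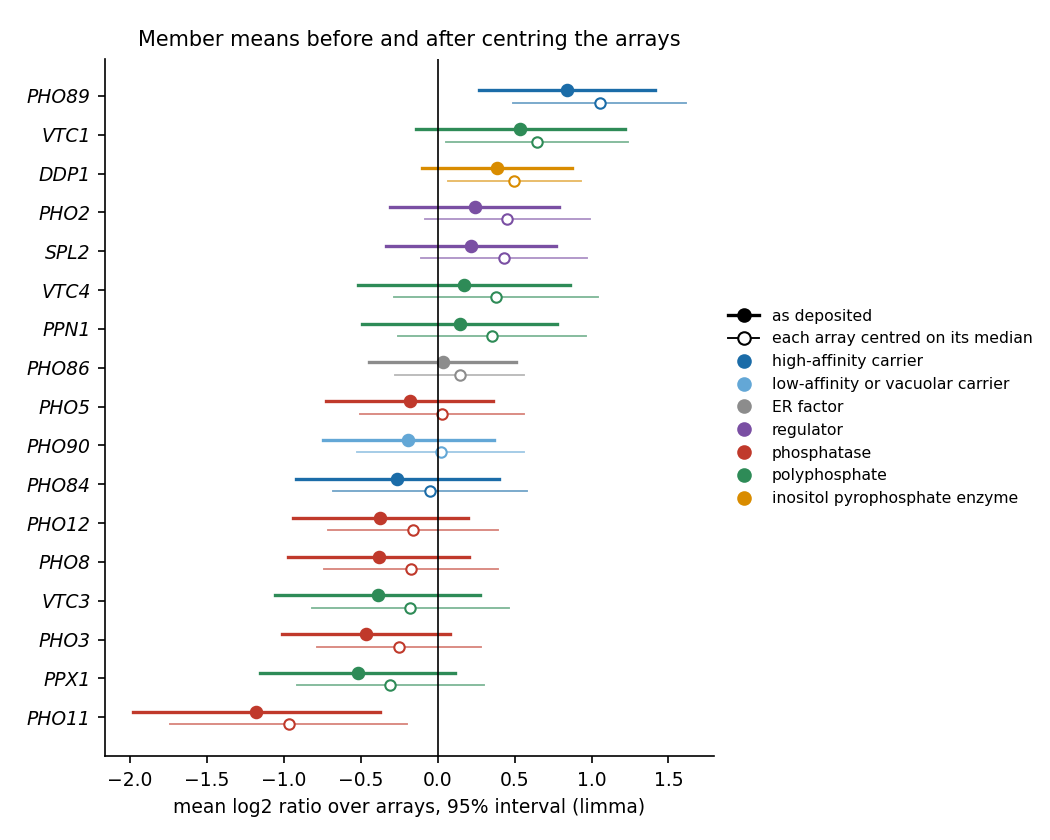
Mean log2 ratio with its 95% interval from limma (arrays as replicates, genes on at least 2 arrays) for the 17 members, as deposited (filled) and with each array centred on its median (open), ordered by mean and coloured by role. As deposited, the intervals of PHO89 (0.27 to 1.41) and PHO11 (-1.98 to -0.37) leave out 0 and the other 15 include it, and centring moves PHO5 and PHO90 to the other side of 0 and the intervals of VTC1 and DDP1 above it. The intervals take arrays 1 and 2 as replicates, which may share a culture. Those of VTC1 and DDP1 rest on every array, of which some share a culture, and are too narrow. With arrays of one culture averaged, the centred interval spanning both possible pairings includes 0 for each of these genes.

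Other genes of phosphate handling were taken from a list of 27. Of these, 15 had no value, 5 had one on 1 array and 7 on at least 2 arrays. The 7 had a median of the means of -0.42, and none passed with limma over genes on at least 2 arrays. In that fit 2 of them (PCL8 and CLG1) were below an unadjusted p of 0.05, as were 453 of the 1899 genes. PCL8 has values on every array, of which some share a culture, so its p there is too small. With arrays of one culture averaged, the unadjusted limma p of PCL8 was 0.18. GDE1, which encodes a glycerophosphodiesterase, had 0.01 on array 1, 0.05 on array 2 and 0.46 on array 4. IPP1, the cytosolic pyrophosphatase gene, had 0.02, -0.07 and -0.09 on arrays 1, 2 and 4, near 0 on each. PPN2, a second vacuolar endopolyphosphatase gene, had 0.14 on array 1 and -1.02 on array 2. It thus lay lower on array 2, as PPN1 did. PSE1, the importin gene that serves Pho4, had -1.08 on array 1 and -0.12 on array 2, and SYG1, a gene whose product holds an SPX domain, had 0.03 and 0.18.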

How the data were processed

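The deposited table holds 1 log ratio per row and array, treated and untreated RNA of a split culture being in the 2 channels per the labels. How the arrays were scanned and normalized, the log base and the direction of the ratio are missing from the labels, so the deposited values were taken as log2 and their sign was kept. Of 6209 rows, 5654 matched a RefSeq R64 gene by locus tag, 57 by synonym and 498 kept their own name. Rows of one gene were averaged, giving 6174 genes. Array 1, with swapped dyes, was taken as already turned because it correlated positively with array 2.

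Ratios were tested against 0 with limma 3.58.1 (R 4.3.3, lmFit and eBayes, Benjamini-Hochberg over all genes tested, threshold 0.05) in 2 ways. Genes on all 3 arrays were fitted with array 1 averaged with array 2 or with array 4, and the larger p was kept. Genes on at least 2 arrays were fitted with every array as a replicate. The fits were tested on simulated data with independent arrays and with changes larger than any member mean. That test does not cover arrays that share a culture, or changes as small as those of the members. Every member with a value was named, and members and lists were chosen with earlier results of these data known. Alternatives were pairings, a dye term, centring, scaling, robust moderation, array 1 turned and each array left out. No probe, promoter or protein sequence was used here, so the planned search of promoters for motifs was not run.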

Additional observations from a re-analysis of the deposited data

How the results depend on the processing

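The number of genes past the threshold among those on all 3 arrays was 0. It was also 0 under each single pairing, centring, robust moderation and with array 1 turned, 2 with separate replicates (with or without a dye term), and 17 after scaling the arrays to one spread. Over genes on at least 2 arrays it was 48, 78 after centring, 64 after scaling, 44 with robust moderation, 2 with a dye term (which leaves the 585 genes on all arrays), and 0 with array 1 turned. Leaving out 1 array replaces both fits by 1 over all genes on both remaining arrays, which gave 0 to 209 calls: 17 of 590 genes when array 1 was dropped, 0 of 616 for array 2, and 209 of 1863 for array 4. Of the members, 17 were tested under centring, scaling, robust moderation, array 1 turned and without array 4, and 3 (VTC1, PHO86 and DDP1) under the other settings. Among these, members passed without array 4 and in no other fit. The members' median of -0.18 changed sign to 0.03 after centring, was -0.075 with members on at least 1 array, and spanned -0.21 to 0.12 when single arrays were left out. Centring also moved the median of all genes on at least 2 arrays, from -0.19 to -0.0089. The medians with an array left out cover all 17 members, of which 14 have a single value without array 1 or 2. Members of one sign numbered 11 of 17, 5 of 17 with array 1 turned and 1 to 12 with 1 array left out, where 3 members remain without array 1 or 2. The phosphatases negative throughout numbered 5, 3 after centring, 0 with array 1 turned, and 5 without array 1 or array 2, an alternative set chosen after seeing the data. Each of these genes has 2 values, both negative. The counts with array 1 turned or an array left out therefore follow by construction, and centring alone could give another count.

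Of 125 recomputed member means, 28 equal the original by construction, because the gene has no value on array 4, among them PHO89 and PHO11, which passed without array 4. Of 69 others with a test, 59 kept their sign and did not pass, and 10 changed sign. Another 28 had no test, of which 4 changed sign. After centring PHO90 was at 0.022 and PHO5 at 0.029. With array 1 turned, PHO90 was at 0.11, PHO2 at -0.075, VTC4 at -0.45 and PPN1 at -0.35. PHO86, near 0, was at -0.0027 after scaling, -0.021 with arrays 1 and 4 averaged and -0.021 with a dye term. With 1 array left out, PHO86 ranged from -0.18 to 0.14, PHO84 from -0.66 to 0.14, VTC3 from -0.80 to 0.022, VTC4 from -0.28 to 0.62 and PPN1 from -0.21 to 0.49. Without a change of sign, VTC1 ranged from 0.14 to 0.93. The cause of these changes was not tested.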

Other observations

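Of the other cyclins that partner the kinase Pho85, 4 had a value. Their values were negative, and no test was made of them as a group. Of the values of all genes, 1701 of 2520 were negative on array 1, 1299 of 1924 on array 2 and 321 of 741 on array 4. PCL8, a cyclin that directs Pho85 to glycogen synthase, had -0.32 on array 1, -0.52 on array 2 and -0.41 on array 4, a mean of -0.42 ± 0.099 (SD, n = 3 arrays, limma adjusted p = 0.59 over genes on all 3 arrays). CLG1 had -0.25 on array 1 and -1.21 on array 2. PCL10 had -0.62 and PCL5 -1.07 on array 1 alone. Of these, PCL8 and CLG1 were tested and did not pass. PCL1, PCL2, PCL6, PCL7 and PCL9 had no value.

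MIR1, the gene of the mitochondrial phosphate carrier, had 2.25 on array 4 alone. CBF1, whose product binds the same core motif as Pho4, had -0.65 and the phosphatase gene PHO13 -0.33, both on array 1 alone. These single values have no replicate check.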
